A study of Hakea prostrata with 26 samples.

Results

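The genes described here were high in young cluster roots of Hakea prostrata, low at the end of the cluster root series, and steady over the growth of field leaves. They were chosen from the measured values. A gene qualified when its lowest level on days 0, 1 and 4 was at least 4, its level on day 12 was at least 2 below that lowest level, and its means at the 5 wild leaf stages spanned under 1.5. All levels are log2(CPM + 1), where CPM is the estimated count scaled to a common library size with TMM factors over all 26 libraries. Of 25047 genes, 7556 had a lowest young level of at least 4, 667 of these were at least 2 lower on day 12 (8.83%), and 107 also met the wild leaf condition, so a cap of 150 genes was not reached. The cluster root levels on days 0, 1, 4 and 12 and the wild leaf span therefore chose the genes, and are given as a description with no test.

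Cluster roots are dense bottle-brush clusters of short rootlets that plants of the Proteaceae form on soils poor in phosphorus. Rootlets of a cluster start and elongate together, then stop growing, release a burst of carboxylates and acid phosphatases that free phosphate from soil particles, and soon become senescent. White roots are the ordinary, non-cluster roots of the same plants. The files pair no ID with a gene name, so no role can be given to a gene, and genes are named by their Trinity assembly ID, with the isoforms of a gene summed.

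The groups were cluster roots aged 0, 1, 4, 7 and 12 days with 1 library each, white roots at 1, 10 and 50 µM phosphate (Pi) with 1 library each, leaves of wild plants at stages 1, 2, 3, 4 and M with 3 libraries each, and mature leaves at 1, 10 and 50 µM Pi with 1 library each. Cluster roots, white roots and mature leaves came from plants in hydroponics, without replicates per the labels, and the wild leaves from plants growing at a field station, 5 of which were sampled and the 3 RNA samples of best quality kept at each stage. The labels give neither the Pi supply of the cluster roots, nor what stage M stands for, nor whether a library pools several plants. Cluster root libraries held 8163081 to 10857613 estimated counts, white root libraries 9486439 to 11508234, wild leaf libraries 1517487 to 11418655 and mature leaf libraries 17130939 to 20283815. Marker genes of the organs could not be looked up without gene names, and in whole-organ RNA fewer cells of a type and less RNA per cell cannot be told apart.

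Together the 107 genes took a share of the cluster root library that was about level over the young days and low at the end. They held 2.01% of the estimated counts on day 0, 1.92% on day 1, 1.87% on day 4, 0.952% on day 7 and 0.123% on day 12. In white roots they held 1.001% at 1 µM, 1.52% at 10 µM and 1.03% at 50 µM Pi. Wild leaves had 0.252 to 0.781% and mature leaves 0.431 to 0.515%. Day 12 thus had the lowest share of all 26 libraries, below every leaf library. A low day 12 was required of every gene, so this is a description. These shares are of library totals without TMM, so they also depend on the other genes of each organ.

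**Figure D1:**
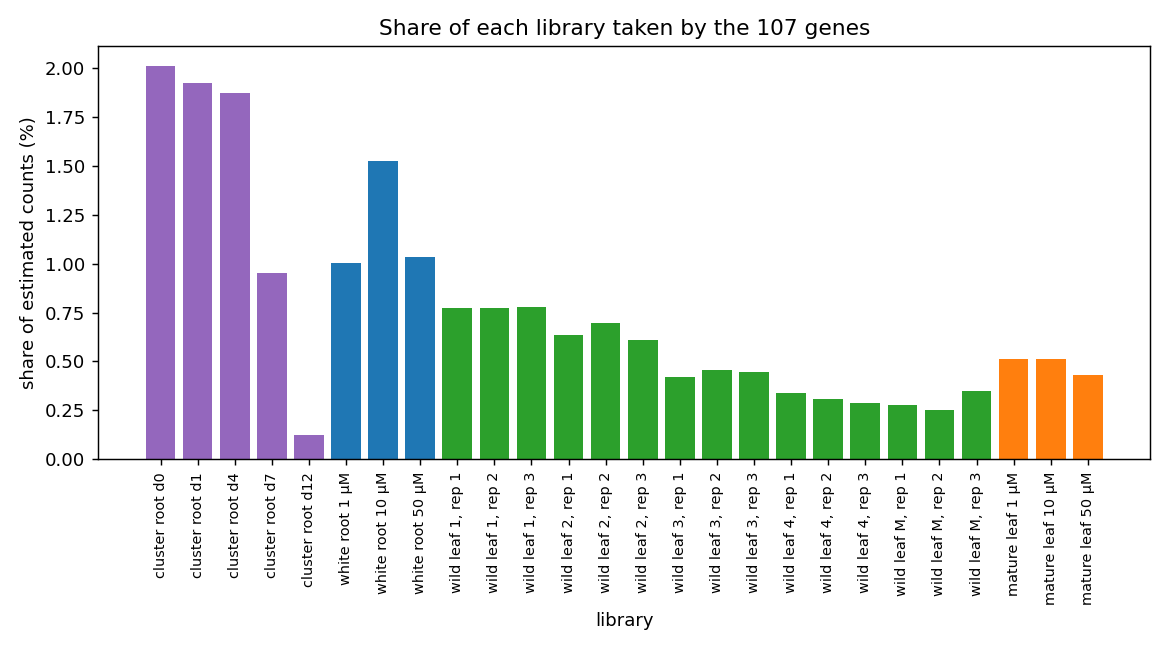
Share of each library's estimated counts, in percent, that the 107 genes held, with 1 bar per library. Cluster root bars go from 2.01% on day 0 to 0.123% on day 12, and white root bars lie between 1.001 and 1.52%.

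The median level of the 107 genes was 5.75 on day 0, 5.60 on day 1, 5.47 on day 4, 4.57 on day 7 and 2.22 on day 12. Over the 7556 genes with a lowest young level of at least 4, the median stayed between 5.51 and 5.55 on all 5 days. TMM is built to keep most genes level, so this flat median is partly built in. With library totals, their median difference of day 12 from the young mean was -0.46, against -0.05 with TMM. Among the 107 genes the difference between the lowest young level and day 12 ran from 2.01 to 7.51, with a median of 2.68. The last genes inside the threshold had 2.04 and 2.01, and the first outside it 2.00 and 1.99. On the wild leaf condition the last gene inside had a span of 1.49 and the first outside 1.52. On day 12, 3 of the 107 genes had no count and 7 had at most 3.

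The first young library was most often the highest of the young libraries: 71 of 107 genes peaked on day 0, 15 on day 1 and 21 on day 4. Day 0 was also the most frequent peak among the 7556 genes, with 3506 on day 0, 1210 on day 1 and 2840 on day 4. A lower level at every step from day 0 to day 12 was seen in 51 of the 107 and 1283 of the 7556 genes. It was seen in 358 of the 560 genes that met the cluster root conditions but not the wild leaf condition. The 3 young libraries differed by a median of 0.60 within a gene, and by at most 2.15.

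TRINITY_DN21323_c0_g1 had the largest difference between the young libraries and day 12. It stood at 874 CPM on day 0, 576 CPM on day 1, 390 CPM on day 4, 92.4 CPM on day 7 and 1.14 CPM on day 12. The last value rests on 10 counts (0.547 to 2.10 CPM, exact Poisson interval at 95%). Its level was lower at every step, by 7.51 from the lowest young library to day 12. TRINITY_DN367_c0_g2 came next, with 195 CPM on day 0, 157 CPM on day 1, 141 CPM on day 4, 53.3 CPM on day 7 and 1.60 CPM on day 12. Its day 12 value rests on 14 counts (0.873 to 2.68 CPM), and its difference to day 12 was 5.77. Such intervals cover counting error only, and a further gene of the same Trinity read cluster, TRINITY_DN367_c1_g2, was also among the 107, with a difference of 4.31. The only other read cluster with several of the genes was TRINITY_DN1703, with 2.

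The 2 genes with the highest mean young level took a sizeable part of the combined share, and their shapes differed. TRINITY_DN32139_c0_g2 stood at 1071 CPM on day 0, 2058 CPM on day 1, 3482 CPM on day 4, 1741 CPM on day 7 and 111 CPM on day 12. It peaked on day 4, was still above its day 0 level on day 7, and held 0.475% of the library on day 4. TRINITY_DN11466_c0_g1 was nearly level at first, with 1050 CPM on day 0, 1139 CPM on day 1 and 1227 CPM on day 4. It then stood at 684 CPM on day 7 and 78.9 CPM on day 12. Neither gene had a count in any mature leaf library, and both were found in every white root library, at 296 to 364 CPM and at 222 to 477 CPM.

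**Figure D2:**
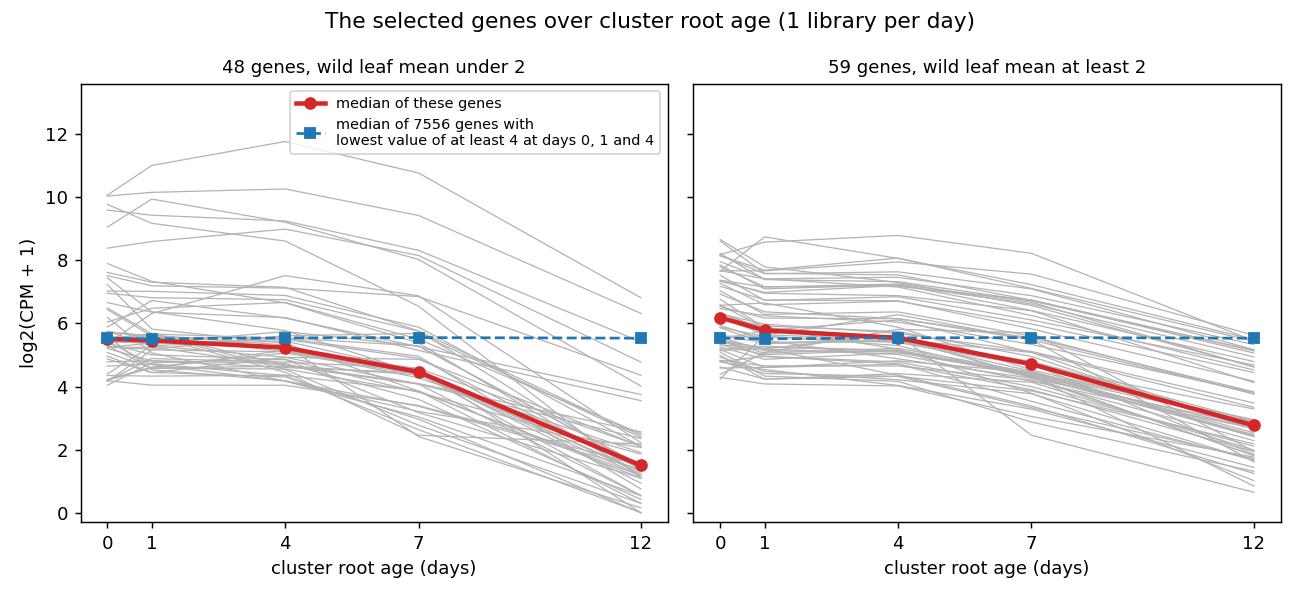
Level in log2(CPM + 1) against cluster root age in days, with 1 grey line per gene, the median of the plotted genes in red and the median of the 7556 genes in blue. The left panel has the 48 genes with a wild leaf mean under 2, whose median was 1.499 on day 12, and the right panel the other 59, whose median was 2.77.

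The day 7 library was not used to choose the genes, though the lowest young level it is set against was. On day 7, 83 of the 107 genes were within 1 of their lowest young level or above it, 21 were 1 to 2 below it and 3 were at least 2 below it. Over the 7556 genes, 96.7% were within 1 or above and 0.172% were at least 2 below. The median difference of the 107 genes between the lowest young library and day 7 was 0.65 (-0.12 over the 7556 genes), and between day 7 and day 12 it was 2.05 (0.06 over the 7556 genes). For 104 of 107 genes the step from day 7 to day 12 was the larger of these, against 5085 of the 7556 genes. A low day 12 was required of the 107 genes, so a large last step is partly built in. The 560 genes that met the cluster root conditions but not the wild leaf condition gave similar counts, with 363 within 1 or above, 189 from 1 to 2 below and 8 at least 2 below, and the step from day 7 to day 12 was the larger in 534. With 1 library a day none of these differences has a replicate check. Without the day 4 library as one of the young libraries, 67 genes were within 1 and 9 were at least 2 below.

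TRINITY_DN13321_c0_g1 and TRINITY_DN8965_c0_g1 were the furthest down on day 7. TRINITY_DN13321_c0_g1 had 44.2 CPM on day 0, 48.4 CPM on day 1, 38.9 CPM on day 4, 4.33 CPM on day 7 and 0.114 CPM on day 12. Its day 7 value rests on 54 counts (3.25 to 5.65 CPM) and its day 12 value on 1 count. TRINITY_DN8965_c0_g1 had 34.4 CPM on day 0, 35.7 CPM on day 1, 49.3 CPM on day 4, 4.49 CPM on day 7 and 0.571 CPM on day 12. Both were 2.90 and 2.69 below their lowest young level on day 7, and TRINITY_DN21323_c0_g1 was the remaining gene past 2, at 2.07.

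At the other end, TRINITY_DN110405_c0_g1 and TRINITY_DN5831_c0_g1 were above their lowest young level on day 7, as were 11 further genes. TRINITY_DN110405_c0_g1 had 40.2 CPM on day 0, 78.5 CPM on day 1, 182 CPM on day 4, 116 CPM on day 7 and 3.65 CPM on day 12. TRINITY_DN5831_c0_g1 had 19.96 CPM on day 0, 32.8 CPM on day 1, 55.3 CPM on day 4, 51.1 CPM on day 7 and 2.85 CPM on day 12. Both had their lowest young value on day 0 and their highest on day 4. With day 0 left out, the difference between the lowest young level and day 7 was -0.56 and -0.63, where a negative value means higher on day 7.

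**Figure D3:**
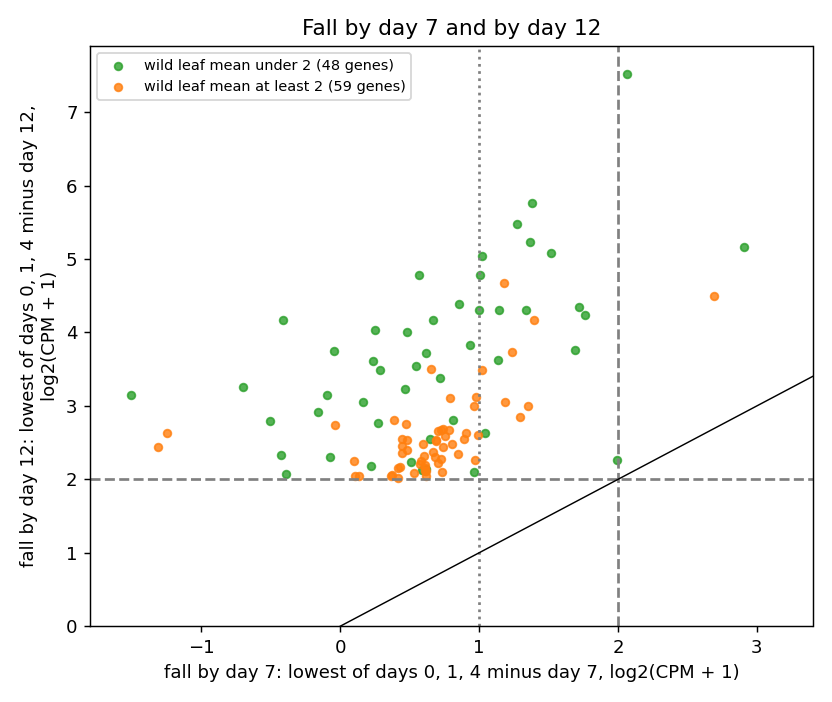
Difference between the lowest young level and day 7 (horizontal axis) against the difference between the lowest young level and day 12 (vertical axis), both in log2(CPM + 1), with 1 point per gene; the dotted line is at 1, the dashed lines at 2 and the solid line marks equal differences. Only 3 points lie to the right of 2, and all points lie above 2 on the vertical axis, as the choice of genes requires.

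Most of the genes were either near 0 or well expressed in wild leaves, and are called leaf-low and leaf-expressed here. The limit of 2 between the classes was set after the values had been seen. In 48 of 107 genes the mean wild leaf level was under 2, and in 43 of these it was under 0.5. In 51 genes it was at least 4, and only 8 lay between 2 and 4. Genes near 0 in every leaf meet the wild leaf condition by themselves, so the size of the leaf-low class is partly built in: 80 of all 667 genes that met the cluster root conditions had a wild leaf mean under 2. Of the leaf-low genes, 31 had no count in any mature leaf library, and 6 had none in any leaf library. Over all 107 genes the median of the wild leaf stage means was 4.36 in stage 1, 3.63 in stage 2, 3.12 in stage 3, 3.08 in stage 4 and 3.31 in the M stage. This pooled median falls between the classes. In the same order, the leaf-expressed class had medians of 6.27, 5.92, 5.76, 5.56 and 5.73. The leaf-low class had 0.07, 0.09, 0.04, 0 and 0.

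Both classes had the high young levels and low day 12 that the choice required, with lower medians on every day in the leaf-low class. Its median was 5.52 on day 0, 5.46 on day 1, 5.23 on day 4, 4.46 on day 7 and 1.499 on day 12. In the leaf-expressed class it was 6.19 on day 0, 5.78 on day 1, 5.54 on day 4, 4.71 on day 7 and 2.77 on day 12. The median difference between the lowest young library and day 12 was 3.62 in the leaf-low and 2.48 in the leaf-expressed class, while by day 7 it was 0.63 and 0.67. Day 0 was the highest young library for 24 of 48 leaf-low and 47 of 59 leaf-expressed genes, and day 4 for 14 and 7. In 49 of the 59 leaf-expressed genes, day 12 was the lowest of all 26 libraries. A low day 12 was required of all the genes and higher leaf levels define this class, so the count is partly built in.

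**Figure D4:**
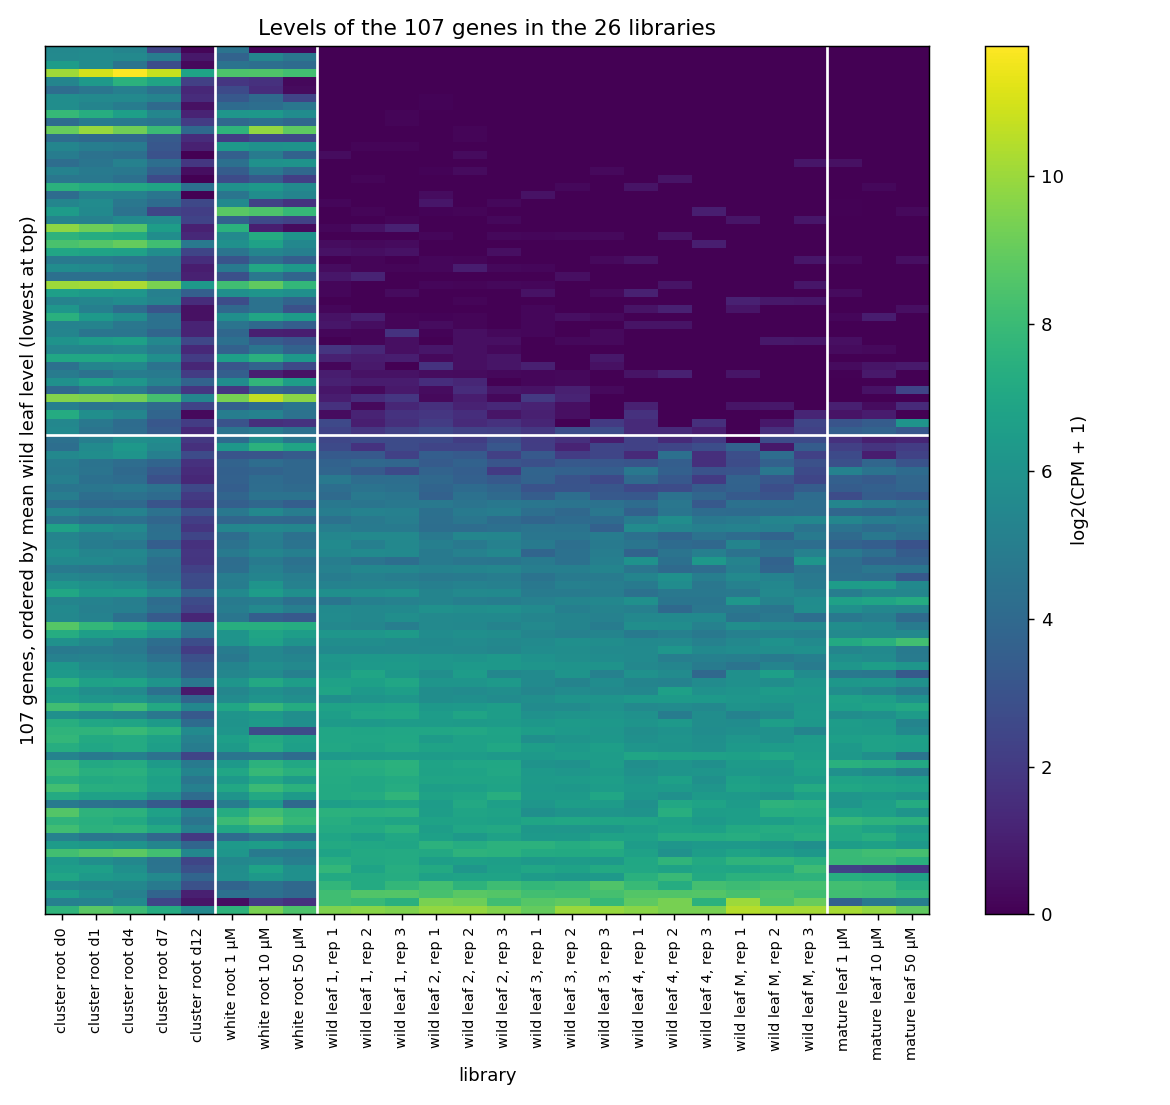
Level in log2(CPM + 1), as colour, of the 107 genes (rows, ordered by mean wild leaf level) in the 26 libraries (columns); the horizontal line divides the 48 genes with a wild leaf mean under 2 from the other 59. Above the line the leaf columns are near 0, while cluster root columns to day 7 and most white root cells are not; below it the day 12 column stands out as low from both roots and leaves.

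The leaf-expressed genes with the highest wild leaf means differed in how they stood in hydroponics. TRINITY_DN798_c0_g1 was found throughout, with 201 CPM on day 0, 427 CPM on day 1, 266 CPM on day 4, 149 CPM on day 7 and 43.8 CPM on day 12. It had 197 CPM at 1 µM, 670 CPM at 10 µM and 355 CPM at 50 µM Pi in white roots. In wild leaves it had 513 to 1421 CPM with a median of 813 CPM, and in mature leaves 1186 CPM at 1 µM, 920 CPM at 10 µM and 478 CPM at 50 µM Pi. TRINITY_DN8965_c0_g1, described above for its low day 7, had 177 to 1038 CPM with a median of 404 CPM in wild leaves. It was far lower in white roots, with 0.335 CPM at 1 µM, 3.20 CPM at 10 µM and 2.16 CPM at 50 µM Pi, and in mature leaves, with 11.9 CPM at 1 µM, 26.2 CPM at 10 µM and 31.9 CPM at 50 µM Pi.

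White roots held the leaf-expressed genes at levels near those of young cluster roots, and the leaf-low genes at lower levels. In the leaf-expressed class the median of the white root means was 5.34, against 5.79 for the young cluster root means. In the leaf-low class these medians were 4.08 and 5.44. The median level of the 107 genes was 4.85 at 1 µM, 5.41 at 10 µM and 4.97 at 50 µM Pi. The median difference of the young cluster root mean from the white root mean was 0.57 (0.09 over the 7556 genes), and that of day 12 was -2.36 (0.04). All young libraries lay above all white root libraries in 52 genes (17.1% of the 7556), and below them in 4 (11.4%). A low day 12 was required relative to the lowest young library, which favours genes with high young levels, so nothing is read from the count of 52. On day 12, 96 genes were below their lowest white root library (40.4% of the 7556 genes), and 51 were at least 2 below it (6.11% of the 7556 genes; 80 of the 107 genes with library totals in place of TMM). The choice of the genes fixes a low day 12, so these counts too are a description. Of the 51, 24 were leaf-low and 27 leaf-expressed. On day 7, 53 of the 107 genes were below their lowest white root library (28% of the 7556 genes).

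The 3 white root libraries were not alike for these genes. The highest was the 10 µM library in 83 of 107 genes (77.6%), against 50.3% of the 7556 genes. It was also the highest in 407 of the 560 genes that met the cluster root conditions but not the wild leaf condition. The range over the white root libraries had a median of 0.87 in the 107 genes and 0.45 over the 7556 genes. In 6 genes the 1 µM library was at least 2 above both others, a pattern seen in 54 of the 7556 genes. Among them, TRINITY_DN21323_c0_g1 had 182 CPM at 1 µM, 1.003 CPM at 10 µM and 0.279 CPM at 50 µM Pi. TRINITY_DN13321_c0_g1 had 22.3 CPM at 1 µM, 0.125 CPM at 10 µM and 0.139 CPM at 50 µM Pi. Both genes were thus near 0 in the other white roots and in all leaves, and present in the 1 µM library and in young cluster roots. Each white root condition is 1 library, so Pi supply and library cannot be told apart here. Whether the 1 µM white root library held some cluster root tissue was not tested. In 6 genes the mean white root level was under 2. In all 6, every young cluster root library lay above every white root library, which the required young level of at least 4 nearly fixes.

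White roots and mature leaves were not used to choose the genes, and between these organs the genes more often differed towards the root. Of the 107 genes, 56 were higher in white roots, 14 were lower, 33 did not pass the test and 4 were not tested, because they reached the count filter in too few of the 6 libraries (edgeR's quasi-likelihood test over 19418 genes with log10 Pi as a term, Benjamini-Hochberg adjusted p under 0.05). Over all genes tested, 28.2% were higher and 22.7% lower in white roots. The median difference of the group means was 1.19 for the 107 genes and 0.21 for all genes tested. The leaf-low class gave 42 higher, 0 lower and 2 that did not pass. These genes were grouped by their low wild leaf levels, and most passed the count filter only through the white roots. This direction was thus largely fixed by the grouping. The leaf-expressed class gave 14 higher, 14 lower and 31 that did not pass. Being high in young cluster root was a condition of the choice, so a leaning towards root is partly built in for genes that both kinds of root express.

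Among the tested genes with over 3 counts in the lower organ, TRINITY_DN3158_c3_g1 and TRINITY_DN46685_c0_g1 had the largest rise in white roots. TRINITY_DN3158_c3_g1 had 427 CPM at 1 µM, 355 CPM at 10 µM and 236 CPM at 50 µM Pi in white roots. In mature leaves it had 0.0544 CPM at 1 µM, 0 CPM at 10 µM and 0.233 CPM at 50 µM Pi (log2 fold change 11.67, SE 0.70; edgeR, adjusted p = 6.0e-05). The log2 fold change was 13.33 without the mature leaf at 50 µM Pi. Its cluster root values stood apart from most of the 107 genes, with 85.9 CPM on day 0, 47.6 CPM on day 1, 20.9 CPM on day 4, 4.49 CPM on day 7 and 3.54 CPM on day 12, all below the white roots. TRINITY_DN46685_c0_g1 had 57.3 CPM at 1 µM, 67.2 CPM at 10 µM and 56.4 CPM at 50 µM Pi in white roots. In mature leaves it had 0.272 CPM at 1 µM and no count at 10 or 50 µM Pi (log2 fold change 9.30, SE 0.74; edgeR, adjusted p = 0.000149). Its log2 fold change was 10.17 without the white root at 1 µM, 8.64 without the mature leaf at 50 µM and 12.95 without the mature leaf at 1 µM Pi, which leaves no leaf count.

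TRINITY_DN4216_c0_g1 and TRINITY_DN1232_c0_g1 were the furthest the other way. TRINITY_DN4216_c0_g1 had 13.0 CPM at 1 µM, 20.1 CPM at 10 µM and 14.6 CPM at 50 µM Pi in white roots. In mature leaves it had 298 CPM at 1 µM, 279 CPM at 10 µM and 167 CPM at 50 µM Pi (log2 fold change -3.90, SE 0.33; edgeR, adjusted p = 0.000176). TRINITY_DN1232_c0_g1 had 19.5 CPM at 1 µM, 19.1 CPM at 10 µM and 15.3 CPM at 50 µM Pi in white roots. In mature leaves it had 289 CPM at 1 µM, 264 CPM at 10 µM and 217 CPM at 50 µM Pi (log2 fold change -3.80, SE 0.21; edgeR, adjusted p = 5.2e-05). In young cluster roots they stood above all white roots, at 41.1 to 47.8 CPM and 35.4 to 95.2 CPM, and on day 12 below them, at 6.50 and 1.03 CPM.

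**Figure D5:**
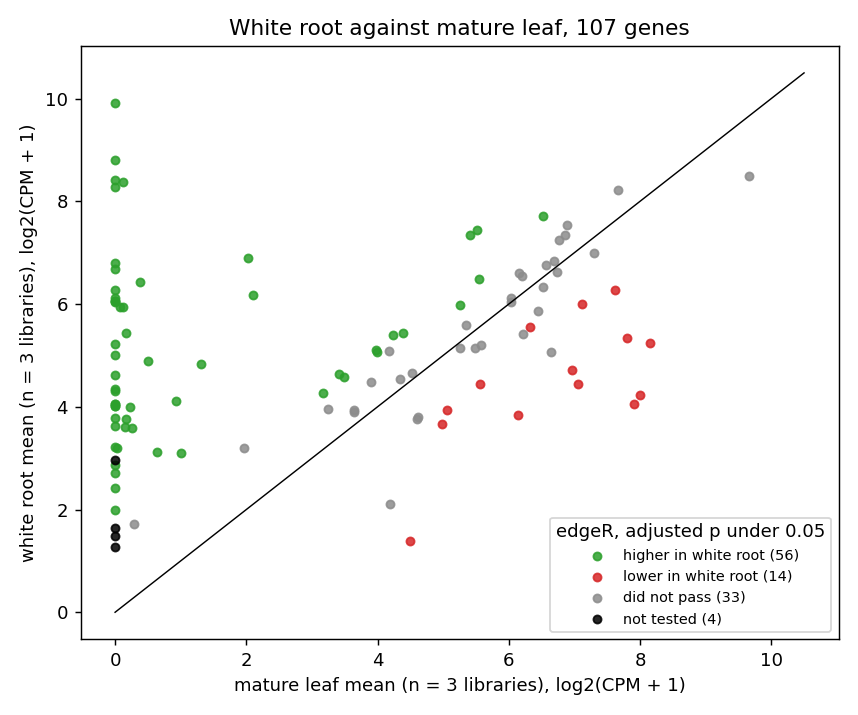
Mean level in 3 white root libraries against the mean level in 3 mature leaf libraries, in log2(CPM + 1), with 1 point per gene, coloured by edgeR's test; the solid line marks equal levels. The 56 genes higher in white roots include a column of points at 0 in mature leaf, and the 14 lower ones lie to the right.

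No change with Pi supply passed the test. For the slope on log10 Pi over both organs, 0 of the 103 tested genes passed (0% of all 19418 genes; 8 of the 103 and 1476 of the 19418 had an unadjusted p under 0.05; edgeR, lowest adjusted p = 0.479). For a slope that differs between white root and mature leaf, again 0 passed (0% of all genes; 11 of the 103 and 2315 of the 19418 had an unadjusted p under 0.05; edgeR, lowest adjusted p = 0.228). DESeq2 gave 1 rise and 2 falls with Pi among the 103 genes, and 165 rises and 183 falls among all 19418. For the difference between organs it gave 1 gene in each direction among the 103 genes, and 111 up and 296 down among all. These fits have 3 and 2 residual degrees of freedom. On simulated data the edgeR fit for the difference of slopes recovered 26 of 100 genes at a difference of 1 per unit of log10 Pi. At a difference of 2 it recovered 95 of 100. The simulation gave every gene the same dispersion (spread beyond counting error) and changed only genes with enough counts, so real recovery may be lower. In the data, a difference of -2.86 for TRINITY_DN8257_c0_g1 did not pass (edgeR, adjusted p = 0.269). Nor did 5.70 for TRINITY_DN10366_c0_g1, which had few counts in mature leaves (edgeR, adjusted p = 0.228). The shared slope was not simulated, so changes with Pi, large ones included, may have been missed.

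Wild leaf stage M and mature leaves in hydroponics could be compared for 61 of the 107 genes, since most leaf-low genes were too low. Of the 61 genes tested, 7 were higher at stage M, 9 were lower and 45 did not pass (edgeR's quasi-likelihood test over 14820 genes, adjusted p under 0.05). The other 46 of the 107 genes were not tested. Over all genes tested, 15.7% were higher and 18.9% lower at stage M. The count of genes higher was 3 or 4 without stage M replicate 1 or 2 and 3 without the mature leaf at 10 µM Pi. The count of genes lower was 5, 4 and 5 without these in turn. Field and hydroponic plants differ in growing conditions, and the mature leaves are at 3 Pi supplies.

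TRINITY_DN4584_c0_g1 had 120 CPM, 137 CPM and 266 CPM at stage M, and 3.92 CPM at 1 µM, 3.36 CPM at 10 µM and 2.69 CPM at 50 µM Pi in mature leaves (log2 fold change 5.75, SE 0.39; edgeR, adjusted p = 7.7e-05). TRINITY_DN8965_c0_g1 had 1038 CPM, 346 CPM and 531 CPM at stage M, above its mature leaf values given earlier (log2 fold change 4.80, SE 0.54; edgeR, adjusted p = 0.000856). Every wild leaf library exceeded every mature leaf library for TRINITY_DN4584_c0_g1 and TRINITY_DN8965_c0_g1. TRINITY_DN10606_c0_g2 had 43.8 CPM, 62.5 CPM and 48.7 CPM at stage M, and 140 CPM at 1 µM, 179 CPM at 10 µM and 295 CPM at 50 µM Pi in mature leaves (log2 fold change -1.95, SE 0.32; edgeR, adjusted p = 0.00284). TRINITY_DN6021_c0_g1 had 0 CPM, 2.02 CPM and 3.90 CPM at stage M, and 10.7 CPM at 1 µM, 12.3 CPM at 10 µM and 8.23 CPM at 50 µM Pi in mature leaves (log2 fold change -2.39, SE 0.77; edgeR, adjusted p = 0.0402). The last call was lost without stage M replicate 1 or 2 or the mature leaf at 10 µM Pi (edgeR, adjusted p = 0.0644, 0.123 and 0.0986), and the log2 fold change was -1.77 without stage M replicate 1 and -3.41 without replicate 3.

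The isoforms of the genes varied in number and in how closely they followed the gene's sum. Of the 107 genes, 49 had a single isoform in the data (45.8%, against 29.1% of the 7556 genes). The share was 45.5% in the 560 genes that met the cluster root conditions but not the wild leaf condition. The other 58 of the 107 genes had up to 6 isoforms each, with 184 isoforms between them. Among these isoforms, 68 had a lowest young level of at least 4, and 64 of the 68 were at least 2 lower on day 12, which the choice of the gene sums largely fixes. Of the other 4, 3 were 1 to 2 lower. The last, TRINITY_DN1125_c1_g4_i3, gave -0.36, with 4.56 on day 12 against 4.20 in its lowest young library. Over all 184 isoforms, 18 were higher on day 12 than in their lowest young library. The most abundant isoform held a median of 84.8% of its gene's young level. Isoforms of a gene share reads, so their split is an estimate.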

How the data were processed

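The authors deposited estimated counts per assembled transcript for 26 libraries of ribosomal-RNA-depleted total RNA, per the labels' protocols. Trim Galore 0.6.6, kallisto and DESeq2 1.30.1 appear in the submitters' processing notes without their roles. The assembly method is not given in the sources used here. Estimated counts of 51697 transcripts were summed over the isoforms of 25047 genes. Levels are log2(CPM + 1) after TMM over all libraries. The genes, lists and tests were chosen with earlier results of these data known.

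Tests used R 4.3.3, edgeR 4.0.16 and, as an alternative, DESeq2 1.42.0, on sums rounded to whole numbers. Genes were kept by filterByExpr (minimum count 10, minimum total 15), scaled by TMM within the libraries compared and fitted with the robust quasi-likelihood model. Calls have a Benjamini-Hochberg adjusted p under 0.05 over all genes tested. All fits but the shared Pi slope were tried on simulated data, which gave every gene the same dispersion. With a simulated log2 change of 1, 77 of 100 genes were recovered between white root and mature leaf, and 66 between stage M and mature leaf. For the difference of slopes, 26 were recovered at 1 per unit of log10 Pi. With a change of 2 these counts were 99, 96 and 95. The labels do not say that the libraries compared came from separate plants in hydroponics, so p-values measure the spread between these libraries. Named genes had the largest differences in each direction or the highest levels. In the tests they also had a mean log2 CPM of at least 2, CPM ranges that did not overlap and over 3 counts in the lower group. The cluster root series had no replicates and no test. Poisson intervals are at 95%. The rounded total of 11508234 was shared by the white roots grown with 1 and 10 µM Pi, while 90.9% of their transcript values differed.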

Additional observations from a re-analysis of the deposited data

How the results depend on the processing

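The number of qualifying genes was 102 to 132 under the other scalings and pseudocounts of 0.5 and 2, and 104 to 135 when 1 young cluster root or wild leaf library was left out. It was 667 without the wild leaf condition, and 174 when single transcripts replaced genes. With library totals in place of TMM, 68 of the 107 genes still qualified, the other 39 no longer meeting the wild leaf span. With DESeq2 size factors 104 did, and with TMM without the 20 most abundant genes 102. Under every scaling and pseudocount tried, all 107 genes were at least 1 lower on day 12 than in the lowest young library. Library totals moved the median of the 7556 genes from young to day 12 to -0.46, against -0.05 with TMM, and that of the 107 genes to -3.45, against -3.01. TMM without the 20 most abundant genes gave -0.10 and TMM within cluster roots -0.15 for the 7556 genes.

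The count at least 2 lower on day 7 was 3 or 4 under other scalings and pseudocounts and 3 to 9 without 1 young library, and that within 1 was 75 to 85 and 67 to 83. The count at least 2 below white roots on day 12 was 80 with library totals, 51 to 68 without 1 white root library and 40 with a pseudocount of 2. Against mature leaves, 50 to 61 genes were higher and 11 to 17 lower in white roots without 1 library, and 54 to 60 and 13 to 15 under the other alternatives, with no call in the opposite direction. Stage M against mature leaf gave 3 to 10 higher and 4 to 12 lower without 1 library. With DESeq2 the Pi slope gave 1 up and 2 down and the difference of slopes 1 up and 1 down, where edgeR gave 0, also without any 1 library. Of 96 refits of named genes with a test, 93 kept the call and 3 lost it. Of 144 refits of named cluster root differences, 110 stayed within the Poisson interval of the original difference and 34 moved outside it. The sign changed once, for TRINITY_DN32139_c0_g2. Its difference between the lowest young library and day 7 was 0.24 without day 0, against -0.70 with it.

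No paired analysis was possible because the groups compared share no replicate numbers in the labels. White root and mature leaf libraries could be matched only by Pi supply. That match, with Pi as a factor in place of a slope, gave 56 genes higher and 13 lower in white roots. Depth limits the day 12 values: 7 genes had at most 3 counts there.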
